A study of Homo sapiens with 29 samples.

Results

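The genes described here were 9 imprinted growth genes: CDKN1C, KCNQ1OT1, PHLDA2, H19, IGF2, GRB10, PEG3, PEG10 and GNAS. They were 9 of the 66025 entries of the gene table, of which 59369 carried a symbol. The genes were chosen by symbol, as genes of the imprinted region of chromosome 11 and other imprinted regulators of growth, with their levels in these libraries already known. Their changes with medium and batch are therefore given as a description, with no p-value, and nothing is read from how many of them passed a threshold. Of the 9 genes, 8 passed the filter on low counts. GRB10, with 1 to 14 estimated counts per library, did not.

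The libraries came from EndoC-βH1, a human pancreatic β-cell line that was made from fetal pancreas with a viral large T antigen and telomerase, so that it divides in culture. The cells spent 10 days in medium that HEK293 cells, a human embryonic kidney line, had conditioned for 3 hours. The HEK293 cells stably overexpressed mutant CEL (MUT, 10 libraries), wild-type CEL (WT, 10 libraries) or an empty vector (EV, 9 libraries). The CEL protein, carboxyl ester lipase, is secreted by pancreatic acinar cells to digest fats, and its gene is mutated in a dominant form of inherited diabetes, and the labels do not name the mutation used. All 3 media carried what HEK293 cells release, and none of the groups had medium without HEK293 conditioning. The labels put 4 MUT, 4 WT and 3 EV libraries in batch 1, and 3 of each in batch 2 and in batch 3. They do not say what a batch was, nor whether each library came from a culture of its own, so p-values and errors reflect only how far these libraries differ, and that spread may be technical.

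Imprinted genes are transcribed mainly from the copy inherited from one parent, and many of them set growth before birth. As a rule of thumb, genes expressed from the father's copy promote growth and those from the mother's copy restrain it. The human region on the short arm of chromosome 11 holds 2 neighbouring domains: in one, IGF2 and H19 share enhancers under an imprinting control region bound by CTCF, and in the other the long antisense RNA KCNQ1OT1 goes with silencing of CDKN1C and PHLDA2 on the copy that transcribes it. In human islets CDKN1C, the cyclin-dependent kinase inhibitor p57, is known as a brake on β-cell division, and its loss, together with gain of IGF2, marks the focal form of congenital hyperinsulinism.

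In the GENCODE annotation (GRCh38), CDKN1C lies on chromosome 11 from 2883213 to 2885773, minus strand. H19 lies there from 1995176 to 2001470, IGF2 from 2129112 to 2149603, KCNQ1OT1 from 2608328 to 2699994 and PHLDA2 from 2928273 to 2929455, all on the minus strand. KCNQ1OT1 lies within KCNQ1, a potassium channel gene on the opposite strand from 2444684 to 2849110. PEG10 and GRB10 are on chromosome 7, from 94656325 to 94669695 (plus strand) and from 50590063 to 50793462 (minus strand). PEG3 is on chromosome 19 from 56810077 to 56840728 (minus strand) and overlaps ZIM2 on the same strand, and GNAS is on chromosome 20 from 58839718 to 58911192 (plus strand). The build behind the counts is not given in the sources used here.

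3 stretches of sequence are shown for 3 of the genes. The first is the H19 promoter, shown because H19 had the largest difference between batches of the 9 genes. It is the RefSeq stretch chr11:2001217-2001516 (GRCh38.p14, minus strand), 300 bases that span a transcription start, with its CG dinucleotides, the sites of DNA methylation, in capitals:
H19 promoter: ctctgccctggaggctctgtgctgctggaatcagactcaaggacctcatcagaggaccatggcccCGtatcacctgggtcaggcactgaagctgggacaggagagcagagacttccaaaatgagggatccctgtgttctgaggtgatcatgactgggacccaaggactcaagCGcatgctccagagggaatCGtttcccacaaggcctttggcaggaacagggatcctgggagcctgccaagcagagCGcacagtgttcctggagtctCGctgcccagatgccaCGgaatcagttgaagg
The stretch holds 6 CG dinucleotides (the letters CG, which read the same on both strands), and 66.3% of 35116 human promoters of the same length hold as many or more. Of the 9 genes, 3 had promoters in that table. The 6 GNAS starts held 10 to 43 CG dinucleotides and the 5 GRB10 starts 3 to 49, beside a median of 14 over all promoters. Methylation itself was not measured.

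The second is the microRNA pair that is cut from H19 RNA, shown because a reader of H19 levels may ask about its product. The hairpin lies inside an exon of 4 of the 12 annotated H19 transcripts, at chr11:1996759-1996831. RefSeq gives the mature forms below, with the seed, bases 2 to 8, in capitals:
hsa-miR-675-5p: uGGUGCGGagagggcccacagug
hsa-miR-675-3p: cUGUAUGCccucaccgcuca
The seeds differ. The MIR675 entry had 0 counts in all 29 libraries, which were made from polyadenylated RNA and would not hold a short mature microRNA.

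The third is the frameshift site of PEG10, a gene derived from a retrotransposon whose RNA is read in 2 overlapping frames. The heptamer GGGAAAC, in capitals, is the known slippery site at which ribosomes shift back by 1 base. It is shown in its coding context, chr7:94664484-94664531 (plus strand), from GENCODE transcripts:
PEG10 frameshift site: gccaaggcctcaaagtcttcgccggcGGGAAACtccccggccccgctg
On the transcript strand, 0.325% of 48-base windows of all annotated transcripts hold these letters, so the match alone identifies nothing, and the RNA counts below do not tell the 2 reading frames apart.

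The libraries held 26.2 to 40.2 M estimated counts each. β-cell markers were high in every library, with INS at 8565 to 19528 CPM, CHGA at 7269 to 12652 CPM and PDX1 at 237 to 535 CPM. Levels are throughout in CPM, counts per M counts of the library, scaled by the trimmed mean of M values (TMM). Of 7 HEK293 markers, LIN28B stood at 9.12 to 16.4 CPM and the other 6 at no more than 0.188 CPM. Mitochondrial transcripts took 5.77 to 8.28% of counts in batch 1, 3.99 to 5.41% in batch 2 and 3.6 to 5.05% in batch 3. EV library 2 of batch 1 has a label whose sample number breaks the run of its neighbours', and it was used as labelled.

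The levels of most of these genes went mainly with batch. H19, a maternally expressed long RNA, averaged 146 ± 24.0 CPM in batch 1 (SD, n = 11), 11.4 ± 3.96 CPM in batch 2 (n = 9) and 11.6 ± 1.69 CPM in batch 3 (n = 9). Its lowest library of batch 1, at 99.8 CPM, was above its highest library of the other batches, at 15.9 CPM. In the model of medium and batch it was 13.2-fold lower in batch 2 than in batch 1 and 12.7-fold lower in batch 3 than in batch 1, on the log2 scale -3.72 ± 0.15 and -3.66 ± 0.15 (SE). These differences were larger than those of 99.9% of all genes tested. In bulk RNA, fewer cells that make a transcript and less of it per cell cannot be told apart.

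**Figure D1:**
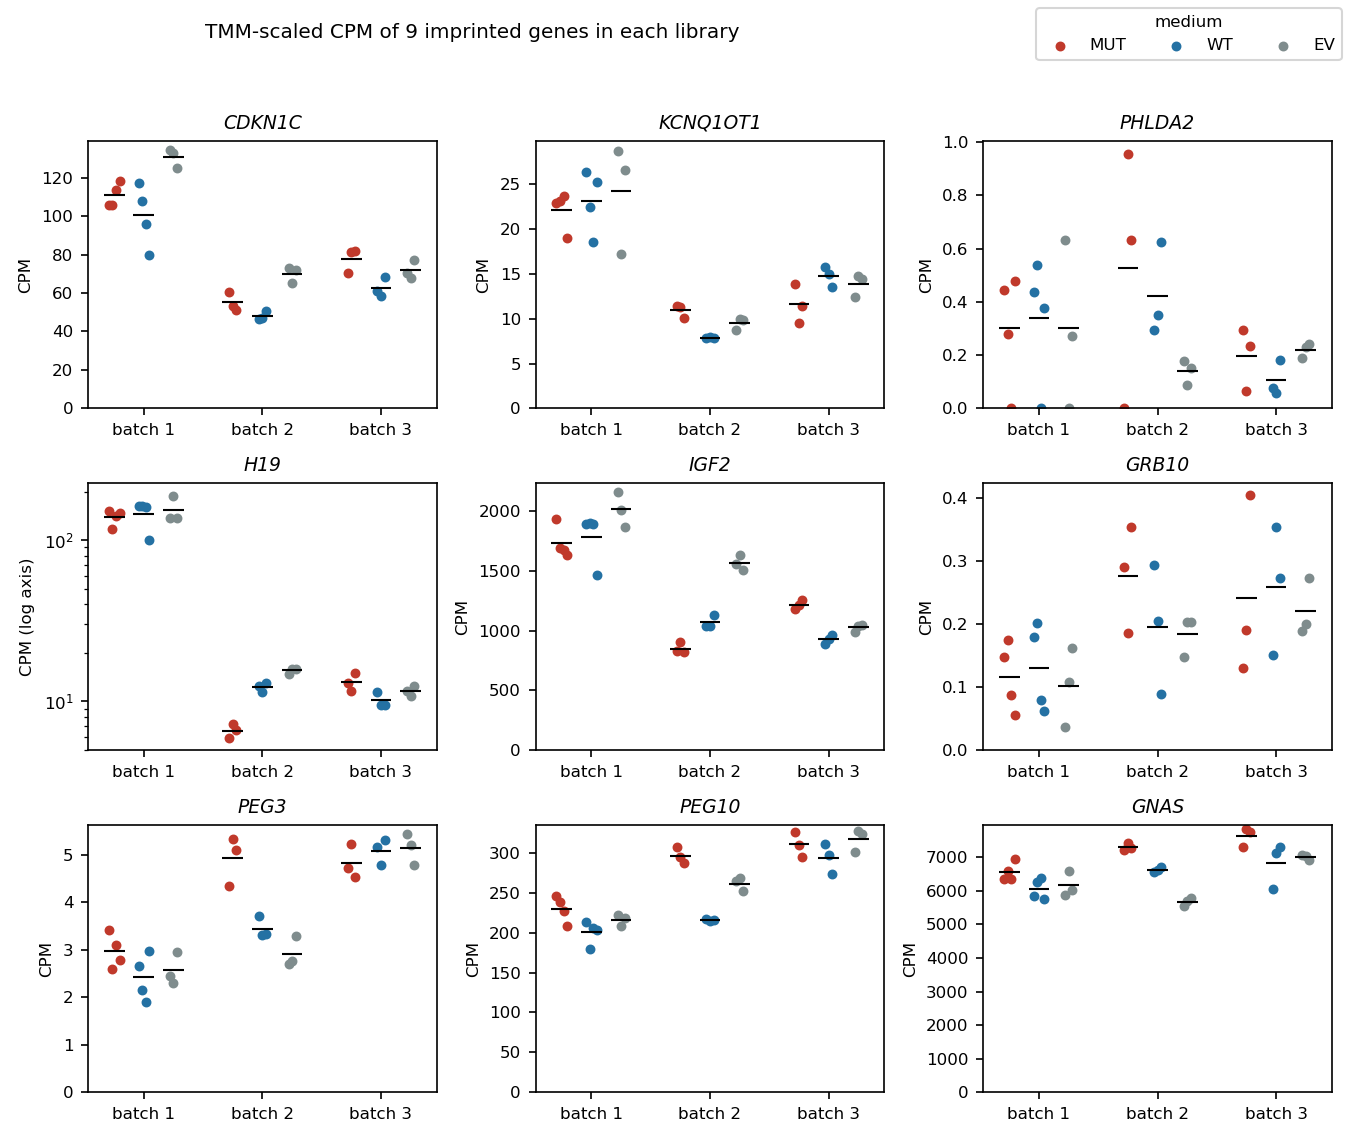
Levels of the 9 genes in each of 29 libraries, in TMM-scaled CPM (y axis, logarithmic for H19), by batch (x axis) and medium (colour), with a line at the mean of each medium and batch. H19 stood at 99.8 to 189 CPM in batch 1 and at 5.88 to 15.9 CPM in the other batches, whatever the medium. GNAS and PEG10 moved less in proportion, 1.14-fold and 1.43-fold higher in batch 3 than in batch 1.

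CDKN1C, KCNQ1OT1 and IGF2, of the same chromosome 11 region, were also highest in batch 1, while PHLDA2, barely detected, was not. CDKN1C averaged 112 ± 16.0 CPM in batch 1, 57.7 ± 10.3 in batch 2 and 70.7 ± 8.15 in batch 3, and its batch 1 libraries (79.9 to 134 CPM) overlapped with the other batches (46.4 to 81.6 CPM) through 1 WT library only. KCNQ1OT1 averaged 23.0 ± 3.62, 9.43 ± 1.41 and 13.4 ± 1.96 CPM in batches 1, 2 and 3, and none of its batch 1 libraries reached down to the others. IGF2, a fetal growth factor expressed from the father's copy, averaged 1826 ± 196, 1161 ± 321 and 1056 ± 131 CPM. CDKN1C and KCNQ1OT1, which lie in one domain and are usually transcribed from opposite parental copies, thus shifted the same way between batches, and so did IGF2 and H19 in the other domain. The 2 paternally expressed genes outside chromosome 11 went the other way. PEG3, a zinc finger protein of fetal growth, averaged 2.66 ± 0.446, 3.76 ± 0.959 and 5.01 ± 0.317 CPM in batches 1, 2 and 3, and PEG10, needed for the placenta in mice, 215 ± 18.2, 258 ± 35.7 and 307 ± 17.6 CPM. GNAS, which encodes the stimulatory G protein α-subunit that couples receptors such as that for GLP-1 to cyclic AMP, averaged 6267 ± 363, 6533 ± 713 and 7144 ± 522 CPM.

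Of the 8 genes tested, 6 differed between batch 2 and batch 1, 7 between batch 3 and batch 1, and 5 between batch 3 and batch 2, by edgeR's quasi-likelihood test at an adjusted p under 0.05. The background was 66.8%, 56.8% and 44.6% of all 21259 genes tested, so such calls were common throughout. The size for H19 was not. The median absolute log2 difference over all genes was 0.31 between batch 2 and batch 1 and 0.23 between batch 3 and batch 1.

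**Figure D2:**
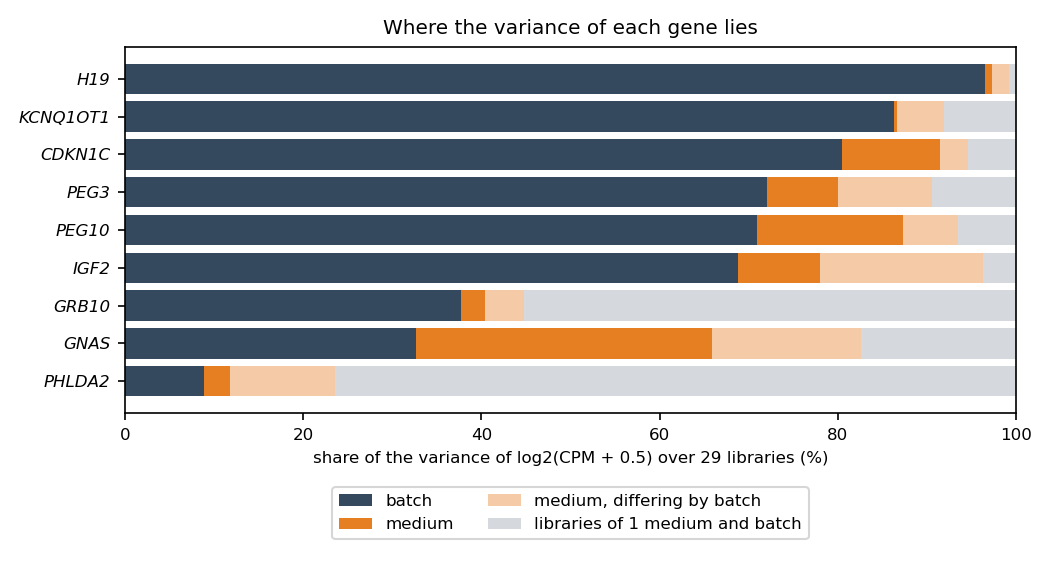
Share of the variance of log2(CPM + 0.5) over 29 libraries (x axis, %) that went with batch, with medium, with medium effects that differed by batch, and with libraries of 1 medium and batch, for each of the 9 genes. Batch held 96.5% for H19, 86.4% for KCNQ1OT1, 80.4% for CDKN1C, 32.7% for GNAS and 8.83% for PHLDA2.

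Split into its sources in that order, the variance lay mostly with batch for 6 of the 9 genes: H19 (96.5%), KCNQ1OT1 (86.4%), CDKN1C (80.4%), PEG3 (72.0%), PEG10 (70.9%) and IGF2 (68.8%). Medium as a common effect held 33.2% for GNAS, 16.4% for PEG10 and 11.0% for CDKN1C, and 9.17% or less for the other 6. Medium effects that differed by batch held a further 18.3% for IGF2 and 16.8% for GNAS. For PHLDA2 and GRB10, 76.4% and 55.3% lay between libraries of the same medium and batch.

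Markers of cell types moved with batch as well, some against H19 and others with it. The summed β-cell markers had medians of 20014, 22674 and 24265 CPM in batches 1, 2 and 3. Those of duct cells, nearly all KRT19, had medians of 41.4, 52.6 and 50.0 CPM. Those of mesenchyme, mostly COL1A1, had medians of 2.82, 5.74 and 5.94 CPM. With the 3 media pooled, all 3 sums were thus lowest in batch 1, against H19. By medium this did not always hold. Under MUT medium the β-cell sum had medians of 20645 CPM in batch 1 and 18418.5 CPM in batch 2, and the duct sum 44.2 and 37.9 CPM. Under EV medium the mesenchyme sum had medians of 3.64 CPM in batch 1 and 2.37 CPM in batch 2. IAPP, the β-cell hormone amylin, had medians of 6.17, 87.7 and 159 CPM in batches 1, 2 and 3, and SST, the somatostatin gene, of 16.6, 166 and 155 CPM. IAPP and SST were singled out after their values were seen. NEUROD1, another β-cell marker, averaged 210 ± 17.3, 263 ± 40.2 and 208 ± 9.78 CPM, highest in batch 2. Apart from INS, batch levels of the other β-cell markers are not given here. INS had medians of 9874, 9181 and 14125 CPM. The summed level of 4 markers of other islet cells, nearly all of it SST, had medians of 18.7, 166 and 157 CPM in batches 1, 2 and 3, and GCG stayed at 1.82 CPM or less. CPA1, an acinar carboxypeptidase gene and nearly all of the signal of 4 acinar markers, averaged 40.7 ± 3.56, 23.6 ± 2.41 and 29.9 ± 2.50 CPM in batches 1, 2 and 3, and the summed HEK293 markers, nearly all LIN28B, had medians of 14.8, 10.4 and 12.4 CPM. Both were highest in batch 1 and lowest in batch 2, as CDKN1C and KCNQ1OT1 were. The part of these markers in the batch differences was not tested.

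**Figure D3:**
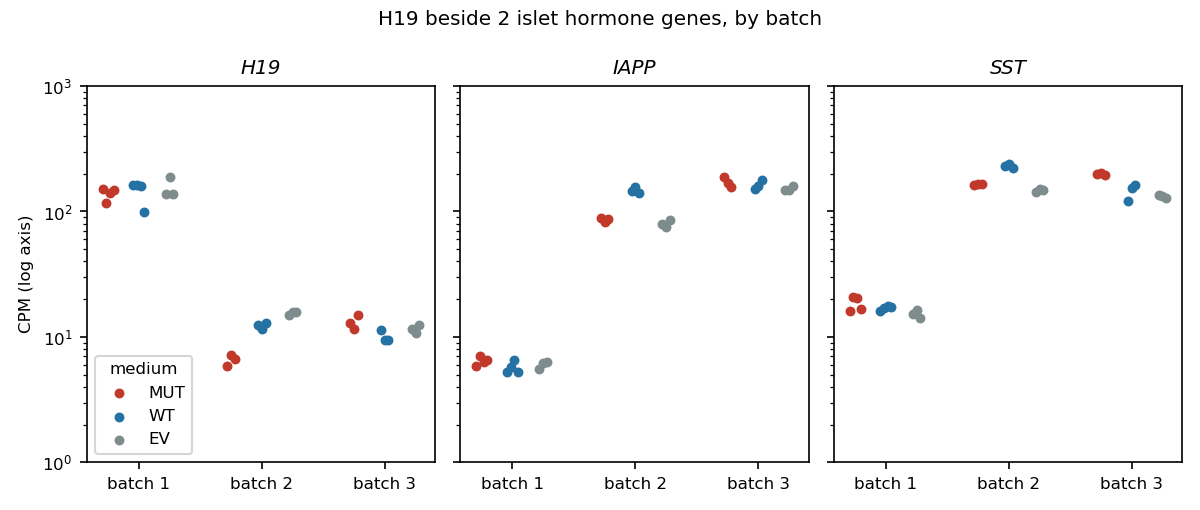
CPM of H19 and of the islet hormone genes IAPP and SST in each library (y axis, logarithmic), by batch (x axis) and medium (colour). IAPP and SST were singled out after their values were seen. H19 was high in batch 1 (median 148 CPM), where IAPP and SST had medians of 6.17 and 16.6 CPM, and low in batches 2 and 3, where IAPP and SST were above 75 CPM in every library.

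Beside them, 13 other genes of the chromosome 11 region and 30 imprinted genes elsewhere were tested, and they moved in both directions with batch. Both lists were chosen with earlier results of these data known, so the adjusted p-values of their genes are a description. Of these 43, 33 differed between batch 2 and batch 1 (18 higher and 15 lower; 76.7% beside 66.8% of all genes), 26 between batch 3 and batch 1 (20 higher and 6 lower; 60.5% beside 56.8%) and 25 between batch 3 and batch 2 (16 higher and 9 lower; 58.1% beside 44.6%), with median absolute log2 differences from batch 1 of 0.28 and 0.24 beside 0.31 and 0.23 over all genes. KCNQ1, the host of KCNQ1OT1, was 3.14-fold lower in batch 2 and 2.99-fold lower in batch 3 than in batch 1 (edgeR adjusted p = 2.8e-09 and 1.2e-08), in the same direction as its antisense RNA. NNAT, an imprinted proteolipid of neurons and β cells, was 2.64-fold and 1.84-fold lower (adjusted p = 1.6e-13 and 2.8e-09), and was singled out after its values were seen. Chosen in the same way, genes that were higher included MEST, a paternally expressed growth gene (1.42-fold and 1.31-fold, adjusted p = 6.6e-14 and 3.2e-11), and DIRAS3, a maternally imprinted growth inhibitor (1.85-fold and 2.07-fold, adjusted p = 7.5e-09 and 4.4e-10). SLC22A18, a transporter gene near CDKN1C, was also higher (1.81-fold and 1.67-fold, adjusted p = 6.2e-07 and 9.4e-06). IGF2-AS was 1.39-fold and 1.45-fold lower, in the same direction as IGF2, and the kit marks strand, but how the counting used it is not given in the sources used here. MEG3 was 1.23-fold lower in batch 2 (adjusted p = 2.3e-05) and did not pass in batch 3.

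**Figure D4:**
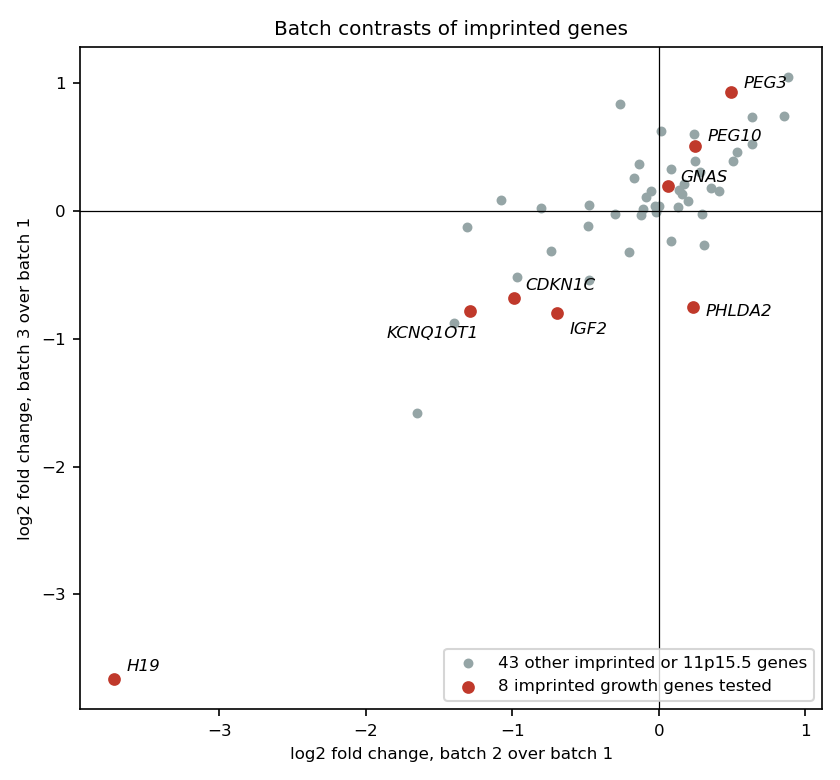
Log2 fold change of batch 2 over batch 1 (x axis) and of batch 3 over batch 1 (y axis) for the 8 growth genes tested (red, named) and 43 other imprinted or neighbouring genes (grey). H19, at -3.72 and -3.66, stood apart from all others shown, the next being KCNQ1 at -1.65 and -1.58; both axes share the batch 1 libraries.

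Over all batches, the media made small differences in H19 beside those of batch. Its log2 fold change was -0.34 for MUT over EV and -3.72 for batch 2 over batch 1. Within batch 2 the media differed more, with MUT over EV at -1.24 for H19 and -0.88 for IGF2. This IGF2 value was larger in size than its differences of batch 2 (-0.69) and batch 3 (-0.80) from batch 1. For GNAS, medium held 33.2% of the variance and batch 32.7%. In CDKN1C, the question was whether the β-cell cycle brake changed under the medium of mutant or wild-type CEL. In batch 1 it stood at 106, 106, 114 and 118 CPM in MUT libraries, at 117, 108, 95.9 and 79.9 CPM in WT libraries and at 134, 133 and 125 CPM in EV libraries. In batch 2 it stood at 60.7, 53.4 and 51.3 CPM in MUT, 46.4, 47.0 and 50.7 CPM in WT and 72.8, 65.0 and 72.1 CPM in EV libraries. In batch 3 it stood at 70.5, 81.2 and 81.6 CPM in MUT, 61.0, 58.3 and 68.4 CPM in WT and 70.3, 67.8 and 77.0 CPM in EV libraries. WT libraries were thus below every EV library in batches 1 and 2 and overlapped with them in batch 3, and MUT libraries were below EV in batches 1 and 2 but not in batch 3.

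Over the 3 batches, the log2 fold change of CDKN1C was -0.16 ± 0.06 for MUT over EV (-0.24, -0.35 and 0.12 in batches 1, 2 and 3), 0.21 ± 0.06 for MUT over WT (0.14, 0.20 and 0.31) and -0.37 ± 0.06 for WT over EV (-0.38, -0.54 and -0.20). The last had the same sign in each batch, and was -0.38 without batch 1 and -0.30 without batch 2. MUT over EV and WT over EV share the EV libraries. Ordered by mean, the 9 combinations of medium and batch were EV (131 CPM), MUT (111) and WT (100.3) of batch 1, MUT (77.8) and EV (71.7) of batch 3, EV of batch 2 (70.0), WT of batch 3 (62.6), MUT of batch 2 (55.1) and, lowest, WT of batch 2. Of the 8 neighbouring pairs in that order, 2 had libraries that did not overlap: EV over MUT in batch 1, and MUT over WT in batch 2.

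**Figure D5:**
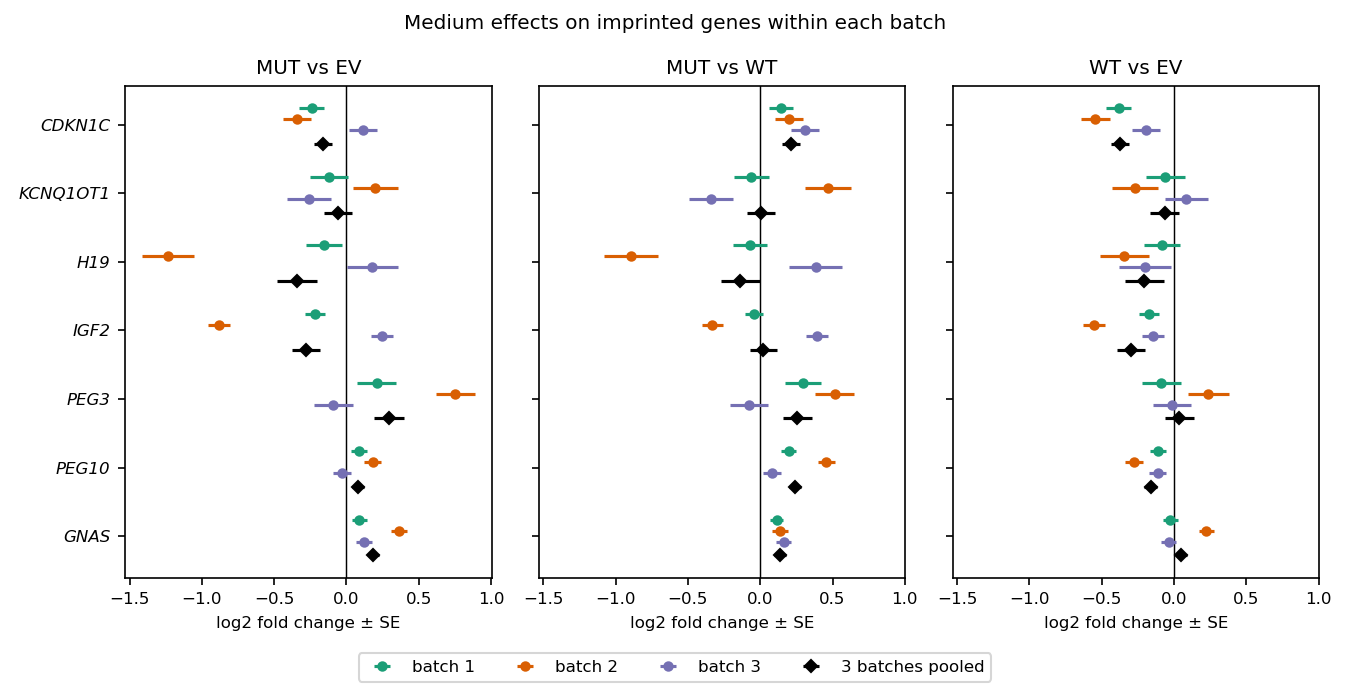
Log2 fold change ± SE (x axis) of MUT over EV, MUT over WT and WT over EV for 7 genes (y axis), in each batch (circles) and over the 3 batches (black diamonds). In batch 2, H19 and IGF2 were at -1.24 and -0.88 for MUT over EV, while batch 3 put both above 0; CDKN1C was below 0 for WT over EV in all 3 batches. PHLDA2 is left out for its wide errors.

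KCNQ1OT1 stood at 22.9, 23.1, 23.6 and 18.9 CPM in MUT, 26.3, 22.5, 18.5 and 25.2 in WT and 28.7, 17.2 and 26.6 in EV libraries of batch 1. It was at 11.4, 11.3 and 10.0 CPM in MUT, 7.89, 7.97 and 7.8 in WT and 8.72, 9.91 and 9.84 in EV libraries of batch 2, and at 13.9, 9.56 and 11.4 CPM in MUT, 15.8, 14.9 and 13.5 in WT and 12.4, 14.8 and 14.4 in EV libraries of batch 3. MUT libraries were above all others in batch 2 only. Its log2 fold changes were -0.06 ± 0.10 for MUT over EV, 0.01 ± 0.10 for MUT over WT and -0.07 ± 0.10 for WT over EV, and the MUT over WT value ran from -0.34 in batch 3 to 0.47 in batch 2.

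PHLDA2, a maternally expressed restraint on placental growth, was barely detected. It had 0 to 36 estimated counts per library, with a median of 8 and 3 libraries at 0. MUT library 1 of batch 2, at 4.3e-07 estimated counts, was rounded to 0 as well. PHLDA2 thus stood at 0 to 0.954 CPM in MUT, 0 to 0.623 CPM in WT and 0 to 0.631 CPM in EV libraries. Its log2 fold changes had standard errors of 0.52 to 0.58, and a difference was not detectable at this depth.

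In the IGF2 and H19 domain, the media differed most in batch 2. H19 was there at 5.88, 7.21 and 6.62 CPM in MUT, 12.4, 11.5 and 12.9 CPM in WT and 14.8, 15.9 and 15.9 CPM in EV libraries, and no MUT library reached a WT or EV library. In batch 1 it was at 152, 116, 140.1 and 148 CPM in MUT, 162, 162, 159 and 99.8 CPM in WT and 137, 189 and 138 CPM in EV libraries, which overlapped. In batch 3 it was at 12.9, 11.6 and 14.9 CPM in MUT, 11.4, 9.52 and 9.47 CPM in WT and 11.6, 10.8 and 12.4 CPM in EV libraries, where MUT was above WT and overlapped with EV. For MUT over EV, H19 had log2 fold changes of -0.16 ± 0.12, -1.24 ± 0.18 and 0.18 ± 0.17 in batches 1, 2 and 3, and -0.34 ± 0.14 over all. For MUT over WT the values were -0.07, -0.89 and 0.38 (-0.14 ± 0.13 over all), and for WT over EV -0.08, -0.34 and -0.20 (-0.21 ± 0.14 over all).

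IGF2 followed H19 in these directions. In batch 2 it stood at 826, 903 and 820.4 CPM in MUT, 1042, 1036 and 1128 CPM in WT and 1558, 1632 and 1508 CPM in EV libraries, and the 3 media did not overlap. In batch 3 it stood at 1179, 1215 and 1255 CPM in MUT, 888, 932 and 959 CPM in WT and 989, 1041 and 1050.0 CPM in EV libraries, again with no overlap but with MUT now highest. In batch 1, where it stood at 1932, 1686, 1672 and 1634 CPM in MUT, 1889, 1897, 1888 and 1460.2 CPM in WT and 2159.6, 2009 and 1863 CPM in EV libraries, all 3 overlapped. The MUT over EV log2 fold change was -0.22 ± 0.07, -0.88 ± 0.08 and 0.24 ± 0.08 in batches 1, 2 and 3, and -0.28 ± 0.10 over all. For WT over EV it was -0.17, -0.55 and -0.15 (-0.30 ± 0.10 over all), below 0 in each batch, and for MUT over WT -0.04, -0.33 and 0.39 (0.02 ± 0.09 over all).

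IGF2 reads are shared with overlapping entries. A second IGF2 entry on the same strand had 6.16 to 46.6 CPM and the readthrough INS-IGF2 4.77 to 22.0 CPM, beside 820.4 to 2159.6 CPM for the main entry, and kallisto splits reads among them by estimation. With the 3 summed, the MUT over EV log2 fold change was again -0.28. INS itself, next to IGF2, was at -0.07, -0.44 and 0.50 for MUT over EV in batches 1, 2 and 3 (edgeR adjusted p = 0.94 over all). The table also held 1 other entry, with no symbol, whose estimated counts equalled those of H19 in all 29 libraries to within 1e-06. All 29 H19 counts were multiples of 0.5 and 19 were not whole, and the summed level of the 2 entries was 2-fold the H19 level printed here. Whether reads were split between them was not tested. With both summed, the H19 log2 fold change was -0.35 for MUT over EV, -0.14 for MUT over WT and -0.21 for WT over EV.

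GRB10, an adaptor that restrains insulin and IGF receptor signalling, had 0.0563 to 0.405 CPM in MUT, 0.0627 to 0.355 CPM in WT and 0.0371 to 0.274 CPM in EV libraries. Counts of 1 to 14 do not allow a comparison at this depth.

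PEG3 stood at 4.34, 5.33 and 5.11 CPM in MUT, 3.71, 3.31 and 3.32 CPM in WT and 2.7, 2.75 and 3.3 CPM in EV libraries of batch 2, and the 3 media did not overlap. In batches 1 and 3 the media overlapped, at 1.9 to 3.42 and 4.52 to 5.44 CPM. Its log2 fold change was 0.29 ± 0.10 for MUT over EV (0.21, 0.75 and -0.09 in batches 1, 2 and 3), 0.26 ± 0.10 for MUT over WT (0.30, 0.52 and -0.08) and 0.04 ± 0.10 for WT over EV. PEG3 overlaps ZIM2 on the same strand, so how reads were divided between them is uncertain.

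PEG10 differed between media mainly in batch 2. It stood at 246, 239, 226 and 208 CPM in MUT, 213, 179.8, 205 and 203 CPM in WT and 222, 209 and 218 CPM in EV libraries of batch 1. In batch 2 it stood at 307, 295 and 287 CPM in MUT, 217, 214 and 216 CPM in WT and 264, 268 and 251 CPM in EV libraries, and in batch 3 at 326, 310.1 and 295 CPM in MUT, 310.2, 298 and 273 CPM in WT and 301, 327 and 324 CPM in EV libraries. MUT was above WT without overlap in batch 2, and WT was the lowest medium on average in each batch. The log2 fold change of MUT over WT was 0.24 ± 0.04 (0.20, 0.46 and 0.08 in batches 1, 2 and 3). It was 0.14 without batch 2. For MUT over EV it was 0.08 ± 0.04 and for WT over EV -0.16 ± 0.04 (-0.11, -0.28 and -0.11).

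GNAS was highest on average under MUT medium in each batch. It stood at 6351, 6573, 6358 and 6932 CPM in MUT, 5847, 6261, 6369 and 5759 CPM in WT and 5869.9, 6594 and 6026 CPM in EV libraries of batch 1. In batch 2 it stood at 7217, 7415 and 7262 CPM in MUT, 6553, 6616 and 6715 CPM in WT and 5536, 5698 and 5783 CPM in EV libraries, and in batch 3 at 7299, 7822 and 7747 CPM in MUT, 6033, 7124 and 7286 CPM in WT and 7047, 7030.2 and 6909.8 CPM in EV libraries. MUT was thus above EV without overlap in batches 2 and 3, and above WT without overlap in the same batches. The log2 fold change was 0.19 ± 0.04 for MUT over EV (0.09, 0.36 and 0.12 in batches 1, 2 and 3), 0.14 ± 0.04 for MUT over WT (0.11, 0.14 and 0.16) and 0.05 ± 0.04 for WT over EV (-0.02, 0.22 and -0.04). Without batch 2 the MUT over EV value was 0.10. The counts do not separate the imprinted transcripts of GNAS from the one made from both copies.

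As a description only, since these genes were chosen with the same values known, 1 of the 8 was past an adjusted p under 0.05 in each comparison: GNAS (higher) for MUT over EV, PEG10 (higher) for MUT over WT and CDKN1C (lower) for WT over EV. None of the 3 was past it without batch 2, nor CDKN1C without batch 1, nor GNAS without any 1 of 5 libraries of batch 2 (EV 1, 2 or 3, or MUT 1 or 3). Of all genes tested, 5.35% were called for MUT over EV (3.05% higher and 2.3% lower), 1.03% for MUT over WT (0.621% higher and 0.405% lower) and 0.32% for WT over EV (0.174% higher and 0.146% lower). The median log2 fold change of the 8 was 0.01, 0.17 and -0.11 in these comparisons, beside 0.00 over all genes in each.

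The effect of the medium depended on the batch for several of the genes. By the interaction of medium and batch in edgeR, it differed between batches for 5 of the 8 for MUT over EV (CDKN1C, H19, IGF2, PEG3 and GNAS), 4 for MUT over WT (KCNQ1OT1, H19, IGF2 and PEG10) and 2 for WT over EV (IGF2 and GNAS). Over all genes tested the shares were 44.2%, 28.4% and 24.1%. In batch 2, MUT and EV libraries did not overlap for 7 of the 8 (52.8% of all genes), MUT and WT for 7 (45.3%) and WT and EV for all 8 (48.4%). In batch 1 the numbers were 1 (17% of all genes), 0 (10.2%) and 1 (12%), and in batch 3 they were 2 (25%), 4 (20.3%) and 2 (10.2%). Media that did not overlap were thus more frequent in batch 2 than in the other batches over all genes as well.

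Within batches, the genes most like CDKN1C over the 29 libraries, by the correlation of log2(CPM + 0.5) after each batch's mean was taken out, were EFNA2 (Pearson r = 0.79), SLC18A3 (0.78), CYB5A (0.78), IGFBP7 (0.77) and DAPL1 (0.76), of 12301 genes with at least 5 CPM. MARK1 (-0.79), CCDC136 (-0.77) and TNFRSF11A (-0.76) were most unlike it. IGF2 had r = 0.67, H19 0.45 and KCNQ1OT1 -0.04. The libraries share 9 combinations of medium and batch, so these values are a description.

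Genes around the 9 were tested between media by edgeR's quasi-likelihood test with adjustment over all genes. Of all genes, 5.35% passed for MUT over EV, 1.03% for MUT over WT and 0.32% for WT over EV. The lists of genes were chosen with earlier results of these data known. Their adjusted p-values, here and in the paragraphs that follow, are therefore a description. Of the 20 calls given below, 14 were lost without batch 1 and 19 without batch 2, the exception being MEG3 for MUT over WT (-0.21). Of 13 tested neighbours on chromosome 11, 1 was lower for MUT over EV, beside 2.3% of all genes: TSPAN32, a tetraspanin, averaged 12.2 ± 5.73 CPM in MUT and 16.0 ± 3.48 CPM in EV libraries (log2 -0.60 ± 0.14, adjusted p = 0.028, with -0.46, -1.44 and 0.08 in batches 1, 2 and 3). Of 30 tested imprinted genes elsewhere, 3 were lower for MUT over EV, beside 2.3% of all genes, and 1 for MUT over WT, beside 0.405%. MEG3, a maternally expressed long RNA whose region is known for reduced expression in islets of people with diabetes, fell to 1904 ± 359 CPM in MUT, against 2317 ± 205 CPM in WT and 2347 ± 89.4 CPM in EV libraries. Its log2 fold change was -0.33 ± 0.06 for MUT over EV (adjusted p = 0.0093; -0.25, -0.67 and -0.10 by batch) and -0.29 ± 0.05 for MUT over WT (adjusted p = 0.0084; -0.28, -0.52 and -0.10 by batch). MEG9, from the same cluster, was at -0.23 ± 0.06 (adjusted p = 0.037) and PLAGL1, a zinc finger regulator of imprinted genes in mice, at -0.24 ± 0.07 (adjusted p = 0.049) for MUT over EV, with values of 0.07 and 0.08 in batch 3. For WT over EV none of the 43 passed, while 8 had an unadjusted p under 0.05, as did 13.4% of all genes, and DESeq2 called 1, and 382 of all genes. Without single libraries, the MEG3 calls passed in 29 of 29 fits, TSPAN32 in 23, MEG9 in 19 and PLAGL1 in 10.

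Among 19 tested genes of the IGF axis, 2 passed for WT over EV, beside 0.32% of all genes, and 1 of them for MUT over WT, beside 1.03%. IGFBP7, a secreted protein that binds IGFs weakly and is on the list above of genes like CDKN1C, averaged 7.94 ± 4.65 CPM in MUT, 6.05 ± 3.02 CPM in WT and 8.34 ± 4.27 CPM in EV libraries, and it rose by 0.33 ± 0.07 for MUT over WT (adjusted p = 0.019; 0.15, 0.57 and 0.27 by batch) and fell by 0.35 ± 0.07 for WT over EV (adjusted p = 0.024). IGFBP3, the main carrier of IGFs in blood, rose for WT over EV (log2 0.995 ± 0.22, adjusted p = 0.036) from a low level, 1.22 ± 1.12 CPM in WT and 0.566 ± 0.313 CPM in EV libraries, and is named after its values were seen. Without single libraries, IGFBP3 passed in 19 of 29 fits, and IGFBP7 in 25 for MUT over WT and 23 for WT over EV.

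Of 17 tested CDK inhibitors and G1 regulators, CDKN1C not among them, the G1 cyclin gene CCNE1 passed. It averaged 21.5 ± 7.46 CPM in MUT, 19.9 ± 6.93 CPM in WT and 25.1 ± 4.62 CPM in EV libraries, at -0.36 ± 0.11 for MUT over EV (adjusted p = 0.048; -0.09, -1.06 and 0.09 by batch) and -0.47 ± 0.11 for WT over EV (adjusted p = 0.046; -0.18, -1.11 and -0.11 by batch). Without single libraries these calls passed in 11 and 15 of 29 fits, and neither passed without batch 1. Of 20 proliferation genes, the replication licensing factors MCM5 (-0.24 ± 0.07, adjusted p = 0.048) and MCM7 (-0.23 ± 0.07, adjusted p = 0.041) fell for MUT over EV, and the mitotic kinase gene AURKA rose for MUT over WT (0.29 ± 0.06, adjusted p = 0.022; 0.19, 0.75 and -0.02 by batch). In batch 3, MCM5 averaged 94.3 CPM in MUT and 88.1 CPM in EV libraries, and MCM7 438 and 429 CPM, the other way. MCM5 passed in 9, MCM7 in 21 and AURKA in 24 of 29 fits that each left out 1 library. The median of these 20 was -0.05 for MUT over EV, 0.19 for MUT over WT and -0.21 for WT over EV, with -0.72 for WT over EV in batch 2 and 0.04 in batch 3.

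Of 24 tested genes of G proteins and cyclic AMP, beside GNAS, the G protein γ-subunit gene GNG12 rose (0.28 ± 0.07, adjusted p = 0.030; 0.17, 0.69 and -0.03 by batch) and the adenylyl cyclase gene ADCY3 fell (-0.29 ± 0.08, adjusted p = 0.032; -0.07, -0.78 and -0.02 by batch) for MUT over EV. Of 16 factors that keep imprints, CTCF, the insulator protein that binds between IGF2 and H19, was slightly higher in MUT, at 128 ± 5.5 CPM, against 119 ± 8.97 CPM in EV libraries (log2 0.12 ± 0.03, adjusted p = 0.028; 0.10, 0.25 and 0.01 by batch), and no other passed. PHLDA3, the 1 called of 3 relatives of PHLDA2 and GRB10, was at 0.63 ± 0.16 for MUT over EV (adjusted p = 0.029), from 1.15 ± 1.08 CPM in MUT and 0.717 ± 0.508 CPM in EV libraries, and is named after its values were seen. Without single libraries, GNG12 and CTCF passed in 22 of 29 fits, and ADCY3 and PHLDA3 in 23.

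Of 8 β-cell markers, 1 passed for MUT over EV: NEUROD1, a transcription factor, rose (0.22 ± 0.05, adjusted p = 0.028). It averaged 216, 310 and 201 CPM in MUT libraries of batches 1, 2 and 3, and 190, 219 and 207 CPM in EV libraries. The median of the 8 was -0.02. Of 3 tested markers of other islet cells, 1 passed for MUT over EV: SST rose (0.36 ± 0.09, adjusted p = 0.028), though the median of the 3 was -0.29. CPA1, the 1 acinar marker tested, stood at 21.3 to 45.6 CPM in these libraries and fell for WT over EV (-0.22 ± 0.04, adjusted p = 0.015). Without single libraries, NEUROD1 passed in 22, SST in 23 and CPA1 in 28 of 29 fits. INS did not pass in any comparison. The summed level of the 7 HEK293 markers ran from 9.22 to 16.5 CPM in MUT, from 9.51 to 16.5 CPM in WT and from 11.1 to 14.8 CPM in EV libraries.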

How the data were processed

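RNA from 29 EndoC-βH1 libraries was made into stranded mRNA libraries and sequenced, per the labels' protocols. The authors deposited estimated counts per gene, made with fastp and kallisto per the submitters' processing notes; their versions, the build and the annotation are not stated in these sources. The counts were rounded to whole numbers, filtered on low counts and scaled by TMM. edgeR 4.0.16 (R 4.3.3, limma 3.58.1) fitted medium and batch by the quasi-likelihood test, with 24 residual degrees of freedom and Benjamini-Hochberg adjustment over all 21259 genes. A model with 1 mean per medium and batch gave batch values and the interaction. The scripts were tested on simulated data. The members and gene lists were chosen with earlier results of these data known. Besides members, the text names up to 4 genes of a list, those with the smallest p among genes past the threshold with at least 1 CPM on average, neighbours on chromosome 11, INS, and the 5 genes most and 3 least like CDKN1C. Alternatives were other scalings and filters, DESeq2 1.42.0, other designs, each batch and each library left out, and, chosen after seeing the data, IGF2 summed with overlapping entries and H19 with an entry of the same values.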

Additional observations from a re-analysis of the deposited data

Results flagged for a closer look

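Within groups of 4 to 10 libraries, 4 of 45 checks found a library far from the others by Dixon's test. Some groups pooled the 3 batches, which differ in level, and the same libraries were checked for each gene. The rate of about 1 in 20 that chance flags is therefore only a rough guide here. KCNQ1OT1 was at 18.9 CPM in MUT library 4 of batch 1, beside 22.9 to 23.6 CPM in the other MUT libraries of that batch. WT library 4 of batch 1 was low for H19, at 99.8 CPM beside 159 to 162 CPM, and for IGF2, at 1460.2 CPM beside 1888 to 1897 CPM, and it was also the lowest WT library of that batch for CDKN1C, at 79.9 CPM. PHLDA2 was at 0.631 CPM in EV library 2 of batch 1, beside 0 to 0.271 CPM in the other EV libraries.

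The effect of the medium differed between batches in 11 of 24 tests of the interaction. Over all genes tested, it differed for 44.2% for MUT over EV, 28.4% for MUT over WT and 24.1% for WT over EV, so such calls were common throughout. As the highest minus the lowest batch log2 fold change, the gap for MUT over EV was 1.42 for H19, 1.13 for IGF2, 0.84 for PEG3, 0.46 for CDKN1C and 0.27 for GNAS. For MUT over WT it was 1.28 for H19, 0.81 for KCNQ1OT1, 0.72 for IGF2 and 0.38 for PEG10, and for WT over EV it was 0.40 for IGF2 and 0.26 for GNAS.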

How the results depend on the processing

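Numbers of the 8 growth genes called, then of the 43 other imprinted genes called, depended on the batches and the design. Values are for MUT over EV, MUT over WT and WT over EV. As reported they were 1, 1 and 1 growth genes and 4, 1 and 0 others, beside 1138, 218 and 68 of all 21259 genes. With no batch term they were 0, 0 and 0, and 0 and 0 others in the first 2 comparisons, beside 0, 0 and 0 of all genes. With 1 summed profile per batch and medium they were 0, 0 and 0, and again 0 and 0, beside 0, 0 and 0 of all genes. With only the 2 media compared they were 0, 2 and 3, and 0 others for MUT over EV and 2 for WT over EV. Over all genes, that setting called 3, 417 and 366. Without batch 1, 0 growth genes were called for WT over EV and 0 others for MUT over WT, beside 1209, 112 and 32 of all 20693 genes in the 3 comparisons. Without batch 2 they were 0, 0 and 0, and 0 others for MUT over EV, beside 0, 341 and 41 of all 20934 genes. Without batch 3 they were 5, 2 and 2, and 11, 3 and 3 others, beside 4781, 1597 and 622 of all 21116 genes. Batch 1 alone gave 0, 0 and 0, and 0 and 0 others, beside 3, 2 and 2 of all 20942 genes. Batch 2 alone gave 7, 7 and 6, and 29, 17 and 22 others, beside 9753, 6683 and 7853 of all 20575 genes. Batch 3 alone gave 0 for MUT over EV and 0 for WT over EV, and 0 and 0 others for MUT over EV and MUT over WT. Over all 20390 genes, batch 3 alone called 19, 132 and 2. DESeq2 called 3, 3 and 2, and 1 other for WT over EV, beside 2139, 535 and 382 of all 21259 genes. Leaving out 1 library at a time gave 0 to 3 growth genes and 1 to 6 others for MUT over EV, and 1 to 2 others for MUT over WT. Over all genes, these fits called 5 to 2048 for MUT over EV and 62 to 288 for MUT over WT. The cause was not tested, beyond the fewer samples.

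With the library number as a replicate block, 0 growth genes and 0 others were called for MUT over EV, beside 0 of all 22530 genes, and GNAS stood at 0.19. Whether the numbers pair the libraries was not settled. Of 28 same-number pairs, 3 had a correlation over 0.1 (-0.067 to 0.14), and pairs of unlike number were not compared with them.

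In batch 3 alone the sign turned for MUT over EV in TSPAN32 (0.0784), MEG9 (0.0657), PLAGL1 (0.0801), CCNE1 (0.0939), MCM5 (0.10), MCM7 (0.0310), GNG12 (-0.0266) and NEUROD1 (-0.0433), and for MUT over WT in AURKA (-0.0206). Over all genes, MUT over EV called 1138 as reported, 0 without batch 2, 9753 in batch 2 alone, 579 with no filter and 2139 by DESeq2. Of 1095 values of single growth genes under 46 settings, 56 moved by more than that gene's SD among libraries of 1 medium and batch. Of the settings, 29 left out only 1 library, so a low number is no measure of how firm the calls were. The calls were lost in 12 settings for GNAS (MUT over EV), 5 for PEG10 (MUT over WT) and 6 for CDKN1C (WT over EV). KCNQ1OT1 changed sign in 16 for MUT over WT. PHLDA2 and GRB10 were limited by depth.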
